A study of Mus musculus with 4 samples.

Results

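The expression of 10 genes that restrain myogenesis was examined in differentiating muscle cells: the Id genes Id1, Id2 and Id3, the Notch effectors Hes1 and Hey1, the receptors Notch1, Notch2 and Notch3, and the ligands Jag1 and Dll1. They were read through every array probe whose transcript maps to one of these symbols, which gave 12 probes of 39429, with Notch1 and Notch2 on 2 probes each. Of all 19751 genes named on the array, these are 10. All 12 probes entered the test, which asked for a signal well above background on 3 or more of the 4 arrays in either the control or the treated channel. The cells were C2C12, an established line of mouse myoblasts whose cells fuse into myotubes in low serum. Treated cells differentiated with interferon gamma (IFN-γ), a cytokine of immune cells, at 1 ng/ml, control cells had no cytokine, and both were taken on day 3 of differentiation. Both groups were in horse serum, whose share the labels give as 2% in one place and 10% in another. Each of 4 arrays, numbered as replicates 1 to 4, held treated RNA in Cy5 and control RNA in Cy3. The dyes were never swapped, so dye and treatment cannot be told apart. The study used 1 cell line, and no label states that each control was a culture of its own. The p-values below therefore cover the spread among 4 arrays, which may be technical in part.

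Myogenic basic helix-loop-helix (bHLH) factors such as MyoD bind DNA as dimers with E proteins. Id proteins have no DNA-binding region and take E proteins out of such dimers, and their genes are classical targets of BMP and Smad signalling. Notch receptors are cut after a ligand on a neighbouring cell binds them, and the released part joins RBPJ and Mastermind proteins on DNA and turns on the Hes and Hey repressors, which hold myoblasts back from differentiation.

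The ratio of treated over control is given on the log2 scale, after background correction and loess, which removes the trend of the ratio with intensity within each array. Of the 12 probes, 2 were higher, 4 were lower and 6 did not pass at an adjusted p under 0.05 (limma, Benjamini-Hochberg over the 28933 tested probes). Among all tested probes, 16.5% were called higher, 12.6% were called lower and 29.1% in either direction. The probes that rose were those of the ligands Jag1 and Dll1. The probes that fell were those of Id1, Id2, Hes1 and Hey1, all 4 of which had positive ratios under median centring, which sets each array's median over all spots to 0 without loess. The median ratio of the 12 probes was −0.055, beside 0.014 over all tested probes. The cells were a bulk sample, so fewer cells that express a gene and less RNA per cell cannot be told apart.

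**Figure D1:**
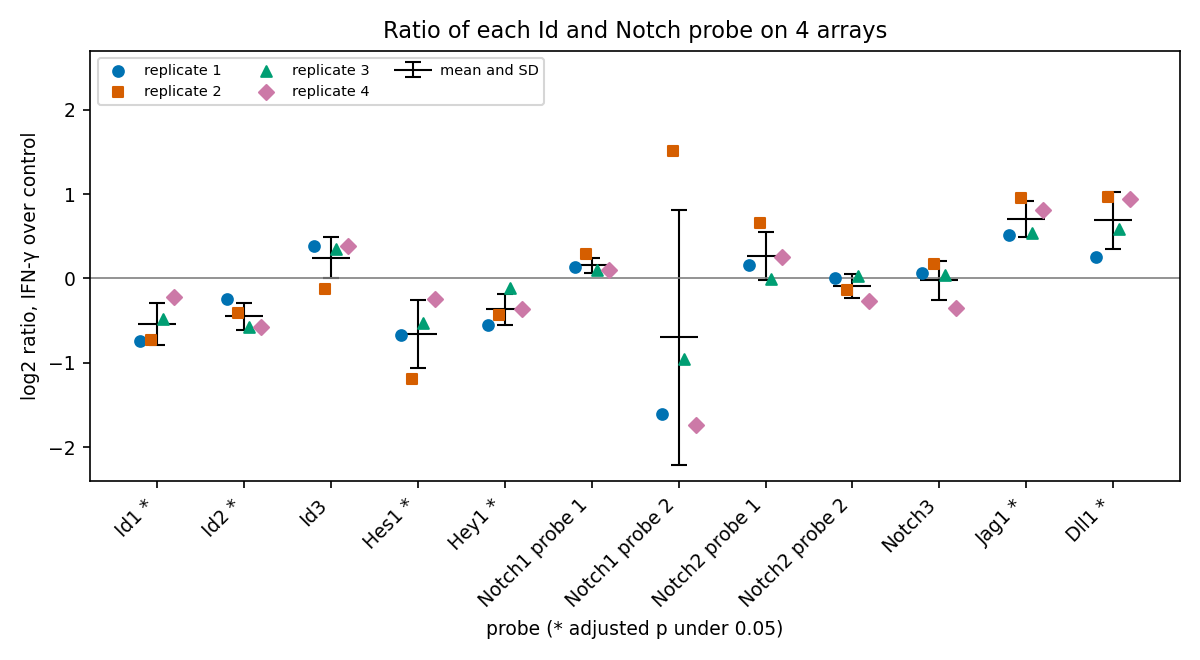
The log2 ratio of IFN-γ over control for each of the 12 probes, with a point per array and bars for the mean and SD over 4 arrays; an asterisk marks an adjusted p under 0.05 after loess. Jag1 and Dll1 lie above 0 on all arrays and Id1, Id2, Hes1 and Hey1 below, the last 4 with positive means under median centring, while Notch1 probe 2 runs from −1.73 to 1.51.

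Median intensities per array lay between 79.75 and 97 in the control channel and between 149.5 and 264 in the treated channel. Between 22492 and 25928 probes were well above background in the control channel and between 28582 and 30161 in the treated channel. The arrays shared 1 slide. Replicate 2 correlated least with the others, at 0.539 to 0.656 across tested probes, where the highest correlation among the other arrays was 0.893. Of the genes fixed as a check of the IFN-γ response, 8 of 8 were higher, with Gbp3 at a mean ratio of 7.08. Genes of differentiated muscle moved too: of 9 tested markers 6 were lower and 3 without a call after loess, their median being −0.62, and of these 6 only Des and Ckm stayed below 0 under median centring. Their summed normalised intensity was between 285794 and 372282 in control cells and between 200054 and 250654 in treated cells. Their part in the ratios of the Id and Notch genes was not tested.

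After loess, Id1 and Id2 were lower and Id3 did not pass, whereas under median centring all 3 had positive ratios that passed. Id1, which holds back myogenic factors in proliferating myoblasts, was read by probe A_55_P2052563 (transcript NM_010495), and its normalised intensity in control cells was 3458, 3659, 3169 and 2802 on replicates 1 to 4. In treated cells of the same arrays it was 2068, 2215, 2264 and 2416. Every treated value was under every control value, and replicate 4 had the smallest gap. The log2 ratios of Id1 were −0.74, −0.72, −0.49 and −0.21, a mean of −0.54 ± 0.25 (SD, n = 4) or 1.46-fold lower, with an adjusted p of 0.0146 (limma). Under median centring its mean was 0.46, and with centring on the tested probes it was −0.015 (limma adjusted p = 0.917). The call of Id1 was lost without replicate 1 (limma adjusted p = 0.0586) and without replicate 3 (0.0678).

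Id2, the Id protein best known from lymphoid cell development, was read by probe A_52_P240542 (NM_010496). Its intensity was 982, 971, 931 and 982 in control cells and 830, 733, 624 and 660 in treated cells. The control values lay close together and the groups did not overlap. Its ratios were −0.24, −0.41, −0.58 and −0.57, a mean of −0.45 ± 0.16 (SD, n = 4) or 1.37-fold lower, with an adjusted p of 0.0113 (limma), but 0.44 under median centring and −0.039 with centring on the tested probes. The call of Id2 was lost without replicate 3 (limma adjusted p = 0.0667) and without replicate 4 (0.0619).

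Id3, the third myoblast Id gene measured, had no call. Its probe A_51_P380178 (NM_008321) had intensities of 659, 617, 819 and 662 in control cells and 857, 568, 1045 and 862 in treated cells. The groups overlapped, and replicate 2 was the array on which the treated value was the lower one. The ratios of Id3 were 0.38, −0.12, 0.35 and 0.38, a mean of 0.25 ± 0.25 (SD, n = 4) with a 95% interval of −0.0064 to 0.50 and an adjusted p of 0.127 (limma). Without replicate 2 the mean was 0.37 and the test passed (limma adjusted p = 0.0041), as it did under median centring, at 1.12. The median of all tested probes in the intensity decile of Id3 was 0.92 under that centring.

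The promoters of Id2 and of both ligands are shown because these are the called members for which a sequence was at hand. RefSeq windows on GRCm38.p6 matched 7 of the 10 genes, and the 250 bases before the start were searched on both strands for the RBPJ core TGGGAA, the IFN-γ activated site TTCNNNGAA, the Hes-type N box CACNAG and the Smad-type site GGCGCC. Capitals mark a match. The windows lie at chr12:25096093-25096342 for Id2, chr2:137116521-137116770 for Jag1, chr17:15376933-15377182 for the outermost Dll1 start and chr17:15375824-15376073 for an inner Dll1 start, all on the minus strand and written 5′ to 3′.
Id2: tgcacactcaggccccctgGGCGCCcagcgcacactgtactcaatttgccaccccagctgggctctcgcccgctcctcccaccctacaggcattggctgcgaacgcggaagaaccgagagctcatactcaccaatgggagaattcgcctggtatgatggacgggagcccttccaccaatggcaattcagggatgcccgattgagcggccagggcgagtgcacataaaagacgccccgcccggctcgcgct
Jag1: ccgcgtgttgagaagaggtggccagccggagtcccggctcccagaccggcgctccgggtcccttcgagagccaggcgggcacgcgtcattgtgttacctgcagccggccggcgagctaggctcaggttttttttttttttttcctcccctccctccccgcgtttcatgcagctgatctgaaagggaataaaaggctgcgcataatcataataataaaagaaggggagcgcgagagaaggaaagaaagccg
Dll1 outermost start: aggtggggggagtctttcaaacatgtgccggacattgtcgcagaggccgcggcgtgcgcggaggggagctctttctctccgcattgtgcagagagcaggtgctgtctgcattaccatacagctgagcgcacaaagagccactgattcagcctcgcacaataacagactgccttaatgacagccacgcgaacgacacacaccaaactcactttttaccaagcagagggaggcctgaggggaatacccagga
Dll1 inner start: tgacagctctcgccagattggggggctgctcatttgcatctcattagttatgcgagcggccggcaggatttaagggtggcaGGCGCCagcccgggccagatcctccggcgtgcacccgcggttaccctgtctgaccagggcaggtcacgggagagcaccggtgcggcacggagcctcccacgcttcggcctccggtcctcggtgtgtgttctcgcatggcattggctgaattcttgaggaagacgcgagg
Id2 held 1 GGCGCC, 231 to 226 bases before its start, and the inner Dll1 start held 1, at 169 to 164 bases, where 9.59% of 32817 windows of this length held at least 1. The Jag1 window, the outermost Dll1 window and that of Id3 had no match of any of the 4 motifs. N boxes, present in 36.7% of windows, were found 1 time each in the Notch1 and Notch2 windows and 2 times in that of Notch3. The Notch3 window is not that of its outermost start, whereas those of Notch1 and Notch2 are. No member window held the RBPJ core or the IFN-γ activated site, which 21.6% and 7.01% of all windows held. These are matches of letters and do not show binding.

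Both Notch effectors were lower after loess and positive under median centring. Hes1, a repressor that Notch turns on directly, was read by probe A_55_P2046245 (NM_008235), and its intensity was 1990, 2023, 2111 and 1787 in control cells. In treated cells it was 1255, 883, 1460 and 1509. The groups did not overlap, and replicate 2 had the lowest treated value. Its ratios were −0.67, −1.20, −0.53 and −0.24, a mean of −0.66 ± 0.40 (SD, n = 4) or 1.58-fold lower, with an adjusted p of 0.0253 (limma), but 0.32 under median centring and −0.16 with centring on the tested probes (adjusted p = 0.394). The call of Hes1 was lost without replicate 1 (limma adjusted p = 0.0856), without replicate 3 (0.0871) and with the methods' t-test on channel values (adjusted p = 0.0521 by that unpaired test across all tested probes).

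Hey1, a repressor of the related Hey family, was read by probe A_51_P258409 (NM_010423). Its intensity was 1526, 1355, 1418 and 1502 in control cells and 1044, 1005, 1306 and 1170 in treated cells, again with no overlap. Replicate 3 had the highest treated value and the smallest ratio. The ratios of Hey1 were −0.55, −0.43, −0.12 and −0.36, a mean of −0.36 ± 0.18 (SD, n = 4) or 1.29-fold lower, with an adjusted p of 0.0258 (limma), but 0.59 under median centring and 0.12 with centring on the tested probes. Its call was lost without replicate 1 (limma adjusted p = 0.0929) and without replicate 4 (0.101).

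**Figure D2:**
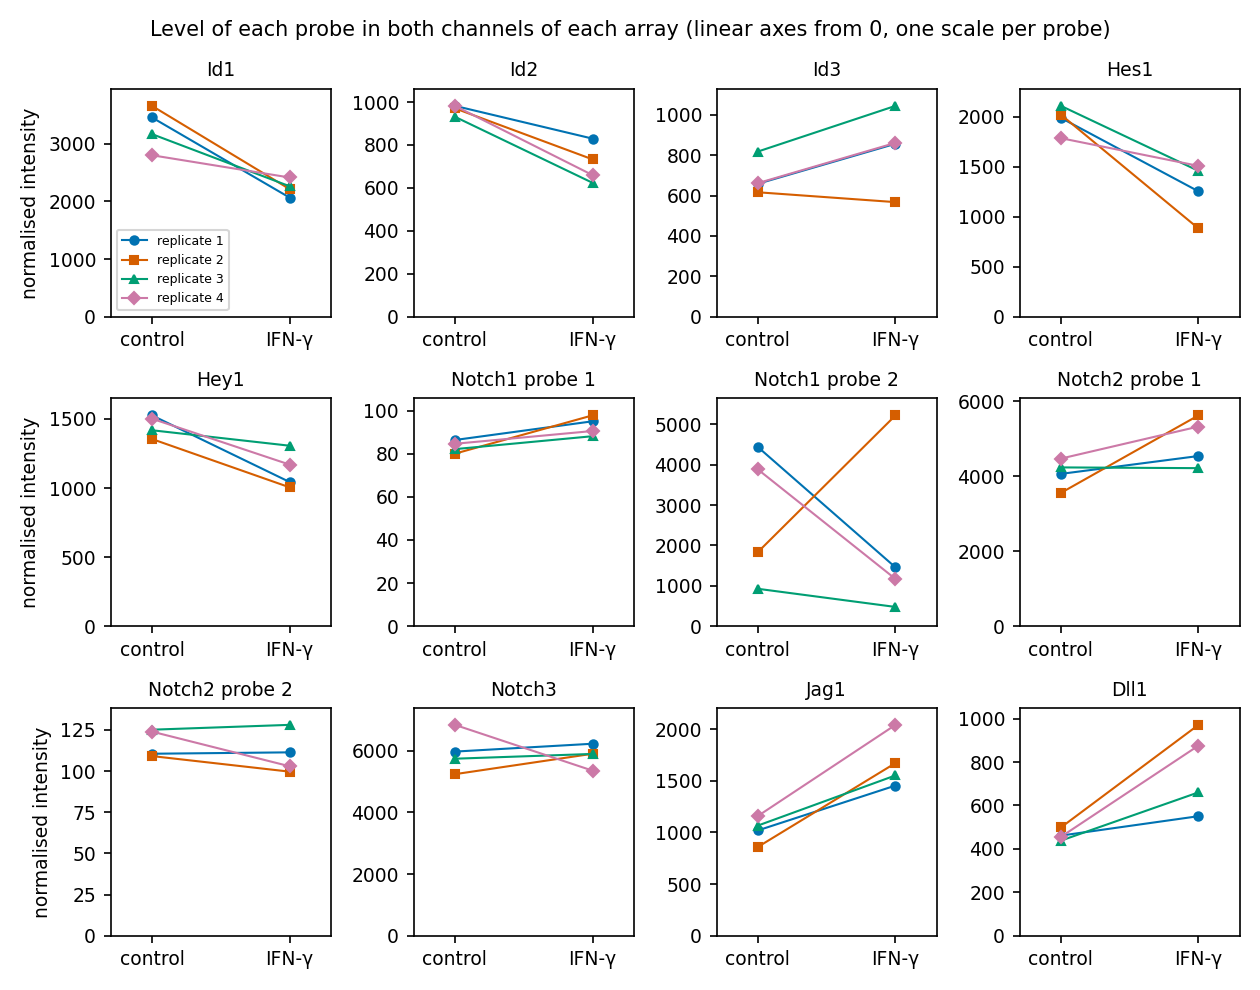
Normalised intensity of each probe in control (Cy3) and IFN-γ (Cy5) channels, with a line per array and a linear axis from 0 that differs between panels. The lines of Jag1 and Dll1 all rise and those of Id1, Id2, Hes1 and Hey1 all fall on this loess scale, where the last 4 ratios are positive under median centring; those of Notch1 probe 2 cross.

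No probe of the receptors passed the test after loess. Under median centring the brighter Notch2 probe passed at 1.27 and Notch3 at 0.99. The dim probes of Notch1 and Notch2 passed in the other direction at −0.36 and −0.29. In the same deciles of intensity, the median of all tested probes was 1.00 for the former pair, and −0.41 and −0.15 for the dim probes. Within its decile Notch3 lay at percentile 48.6 and the brighter Notch2 probe at 78.6. The dim Notch1 probe lay at 65.5 and the dim Notch2 probe at 23.3. Notch1, a receptor of muscle stem cells, had probes that disagreed. Probe A_55_P2047168 (NM_008714, probe 1) was not well above background in control cells on any array and was above it in treated cells on 4. Its intensity was 86.4, 80.0, 82.1 and 84.6 in control and 95.1, 97.8, 88.1 and 90.5 in treated cells. Its ratios had a mean of 0.16 ± 0.09 (SD, n = 4) and did not pass after loess (limma adjusted p = 0.120), and the mean was −0.36 under median centring and −0.83 with centring on the tested probes. The probe entered the test through the treated channel, so neither a fold nor a direction is given for it.

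The second Notch1 probe, A_55_P2171897, was bright on all arrays and had the widest spread of the 12. Its intensity was 4438, 1837, 926 and 3883 in control cells and 1457, 5224, 476 and 1169 in treated cells. Replicate 2 ran opposite to the other arrays, with a ratio of 1.51 against −1.61, −0.96 and −1.73. The mean was −0.70 ± 1.51 (SD, n = 4) with a 95% interval of −2.03 to 0.64 and an adjusted p of 0.380 (limma). Without replicate 2 the mean was −1.43 and the test passed (limma adjusted p = 0.000529), and under median centring of all 4 arrays the mean was 0.24. The 2 probes therefore gave Notch1 no common direction.

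Notch2, a second receptor of muscle cells, also had 2 probes, and neither passed. The brighter probe, A_52_P289213 (NM_010928, probe 1), had intensities of 4064, 3557, 4237 and 4472 in control and 4541, 5626, 4217 and 5327 in treated cells. Replicate 2 gave the largest ratio, 0.66, and the others gave 0.16, −0.0068 and 0.25. The mean was 0.27 ± 0.28 (SD, n = 4), with a 95% interval of −0.017 to 0.55 and an adjusted p of 0.138 (limma). Probe A_55_P1982793 (probe 2) lay at 109 to 125 in control and 99.7 to 128 in treated cells, and its mean ratio was −0.089 ± 0.14 (SD, n = 4; limma adjusted p = 0.416; 95% interval −0.27 to 0.094). It had −0.29 under median centring and −0.77 with centring on the tested probes, and passed the test as lower under both.

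Notch3, another receptor of muscle stem cells, was measured by probe A_51_P220162 (NM_008716). Its intensity was 5975, 5242, 5744 and 6843 in control and 6230, 5904, 5899 and 5358 in treated cells. Replicate 4 alone had the treated value below the control value. The mean ratio of Notch3 was −0.021 ± 0.23 (SD, n = 4; limma adjusted p = 0.897), with a 95% interval of −0.26 to 0.22. It was 0.090 without replicate 4 and 0.99 under median centring, where the median of its intensity decile was 1.00.

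Both ligands rose, and their ratios stayed above 0 under each alternative that changed the normalisation or background correction. Their ratios were above 0 on every array, so leaving out 1 array could not turn the sign. Alternatives that changed only the filter, the unit of test or the test kept the same ratios. Jag1, a transmembrane ligand of Notch receptors, was read by probe A_52_P634090 (NM_013822). Its intensity was 1020, 860, 1067 and 1160 in control cells and 1454, 1672, 1553 and 2042 in treated cells. Every treated value was above every control value. The ratios of Jag1 were 0.51, 0.96, 0.54 and 0.82, a mean of 0.71 ± 0.22 (SD, n = 4) or 1.63-fold higher, with an adjusted p of 0.00545 (limma). It was higher on 4 of 4 arrays and passed under all 14 alternatives, with adjusted p-values between 1.04e-05 and 0.0388, and its mean was 1.67 under median centring and 1.19 with centring on the tested probes. Jag1 lay at percentile 96.8 of the ratios of all tested probes.

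Dll1, a Delta-type ligand of Notch receptors, was read by probe A_51_P306017 (NM_007865), which has 10 spots on each array. Its intensity was 461, 498, 438 and 455 in control cells and 550, 971, 660 and 876 in treated cells. The groups did not overlap, and replicate 1 had the lowest treated value. Its ratios were 0.26, 0.96, 0.59 and 0.94, a mean of 0.69 ± 0.33 (SD, n = 4) or 1.61-fold higher, with an adjusted p of 0.0143 (limma). The mean of Dll1 was 1.49 under median centring and 1.01 with centring on the tested probes. Its call was lost without replicate 3 (limma adjusted p = 0.0643), without replicate 4 (0.0711) and with the methods' t-test on channel values (adjusted p = 0.0515 across all tested probes).

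The 10 spots of Dll1 show how much of its spread lay within an array. Their SD was 0.057, 0.082, 0.073 and 0.053 on replicates 1 to 4, against an SD of 0.33 between arrays. Replicate 1 ranged from 0.19 to 0.37, replicate 2 from 0.75 to 1.07, replicate 3 from 0.49 to 0.71 and replicate 4 from 0.87 to 1.00. All 40 spot values of Dll1 were above 0, and the spots of replicate 1 did not overlap with those of any other array. Over the 253 probes with 10 spots that were above background, the median SD was 0.050 between spots and 0.17 between arrays. Spots of an array share its RNA and are not replicates of the treatment.

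**Figure D3:**
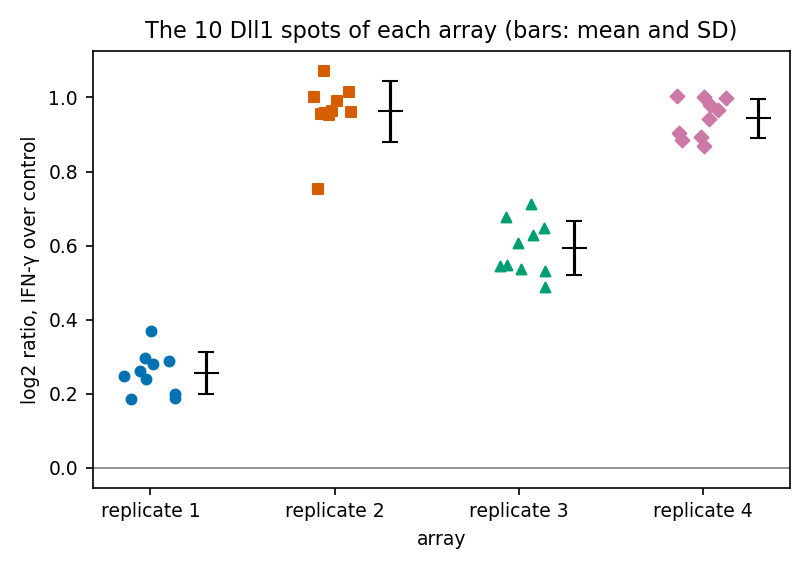
The log2 ratio of each of the 10 Dll1 spots on each array after loess, with bars for the mean and SD over spots. Every spot is above 0, and the array means run from 0.26 on replicate 1 to 0.96 on replicate 2.

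Counted without a test, 3 of the 12 probes had ratios above 0 on all 4 arrays, against 27% of all tested probes, and 4 had ratios below 0 on all 4, against 22.2%. By channel levels, 3 probes had every treated value above every control value, those of Jag1, Dll1 and, with control signals not above background, Notch1 probe 1, against 17.8% of all tested probes. Another 4 had every treated value below, those of Id1, Id2, Hes1 and Hey1, against 11.7%. By the distance between their 4 ratios, the genes most like Jag1 were Usp39 (0.087), Kif2c (0.11) and Aven (0.11), where the median distance of Jag1 from 15608 genes was 1.47. Those most like Dll1 were Mccc2 (0.16), Paip1 (0.17) and Diaph3 (0.17). These distances, in log2 units, rest on 4 arrays and are a description.

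The direction of the lower genes rests on how intensity is treated. Without loess, the median-centred ratio of all tested probes climbed with intensity, from a median of −0.58 in the dimmest decile of intensity to 1.00 in the ninth. Against the probes of their own decile, Hes1 had 0.32 where the median was 0.99, Id1 had 0.46 where it was 0.99, Id2 had 0.44 where it was 0.92 and Hey1 had 0.59 where it was 0.92. Hes1 thus lay at percentile 6.19 of its decile, Id1 at 9.99, Id2 at 11.8 and Hey1 at 19.6. Jag1 had 1.67 and Dll1 1.49, at percentiles 95.5 and 94.9 of their deciles. So Id1, Id2, Hes1 and Hey1 were low against probes of like brightness while their own median-centred ratios were positive. Jag1 and Dll1 were high on both counts. Centred on the tested probes instead, the means were −0.015 for Id1, −0.039 for Id2, −0.16 for Hes1 and 0.12 for Hey1. Median centring put the median of all tested probes at 0.50 and called 78.8% of them, of which 72.3% were higher, against 56.8% of the called probes after loess. With centring on the tested probes, 48.8% of the called probes were higher.

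**Figure D4:**
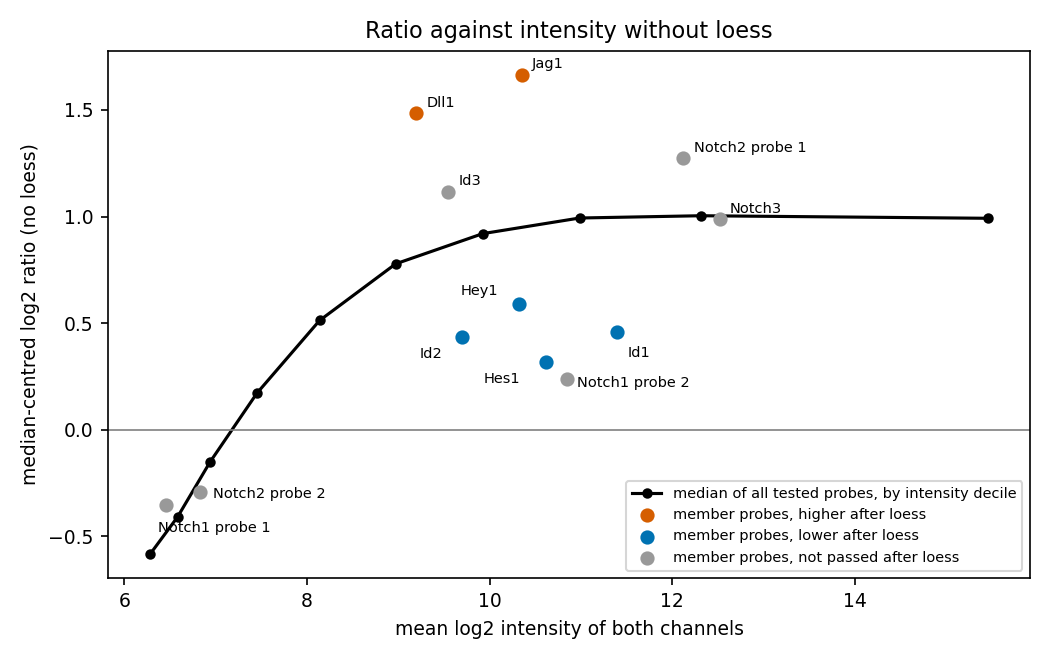
The median-centred log2 ratio without loess against the mean log2 intensity of both channels, for the 12 probes and as the median of all tested probes in each decile of intensity (black line). Id1, Id2, Hes1 and Hey1 lie above 0 but below the line, and Jag1 and Dll1 lie above both.

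Other genes of the same pathways were counted from 8 lists, each gene by its brightest tested probe. Of 99 listed genes 85 were tested, and 18 of these were higher, 13 lower and 54 without a call, and the median was −0.0061. That is 21.2% higher and 15.3% lower, against 18.7% and 12.9% of all 15678 tested genes, of which 31.7% were called in either direction. Median centring turned the sign of each lower gene named from these lists, with ratios from 0.0086 for Bmpr2 to 0.66 for Hes7.

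Among the other receptors and ligands, 1 of 5 tested genes was higher and 4 did not pass. Notch4, the receptor best known from endothelium, was that gene, but it was above background in control cells on 1 array only and entered the test through the treated channel. Its mean ratio was 0.34 after loess, 1.68 with Feature Extraction's ratio and −0.41 with centring on the tested probes. With both channels required above background on all arrays, 0 genes of this list were higher. The ligand gene Jag2 had −0.27 ± 0.17 (SD, n = 4), did not pass after loess, and had 0.44 under median centring.

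Of 12 genes for the cutting and glycosylation of Notch, 3 were higher, 4 lower and 5 did not pass. The lower ones included 2 γ-secretase subunits, Aph1a at −0.58 ± 0.05 (SD, n = 4; limma adjusted p = 0.00249) and Psenen at −0.47 ± 0.31 (0.0352), which had 0.43 and 0.54 under median centring. A second Aph1a probe had 0.14, and that of Psenen had −0.56. Poglut1, which adds O-glucose to Notch, was higher at 0.50 ± 0.09 (SD, n = 4; limma adjusted p = 0.00495). The convertase gene Furin had 0.05 ± 0.05 and did not pass. Psenen lost its call without replicate 3 (limma adjusted p = 0.106) and without replicate 4 (0.138).

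Of 11 genes of Notch endocytosis and antagonism, 1 was higher, 2 lower and 8 did not pass. Fbxw7, a ubiquitin ligase part that marks the cut receptor for destruction, had −0.76 ± 0.34 (SD, n = 4; limma adjusted p = 0.0112), but 0.25 under median centring. Neurl1a, a ubiquitin ligase of the Neuralized family, had −0.58 ± 0.15 (limma adjusted p = 0.00514) and −0.59 on its second probe, but 0.45 under median centring. Numbl, related to the Notch antagonist Numb, had 0.34 ± 0.11 (limma adjusted p = 0.0152) and did not pass with Feature Extraction's ratio (0.0828). Dtx2 had −0.29 ± 0.19 and did not pass, though it passed without replicate 4 (limma adjusted p = 0.0442). Fbxw7 lost its call without replicate 3 (limma adjusted p = 0.0633) and replicate 4 (0.0593), and Numbl lost its call without replicates 1, 3 or 4 (0.0582 to 0.0716).

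In the nuclear complex and its corepressors, 4 of 15 genes were higher, 2 lower and 9 did not pass. Maml2, a Mastermind coactivator, was higher at 1.06 ± 0.28 (SD, n = 4; limma adjusted p = 0.00299), whereas its second probe had −0.049. Kat2b, a histone acetyltransferase, was higher at 1.02 ± 0.36 (limma adjusted p = 0.00564). Tle1, a Groucho corepressor that works with Hes proteins, was lower at −0.90 ± 0.20 (limma adjusted p = 0.00249), with −0.18 and 0.51 on its other probes and 0.068 under median centring.

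The Hes and Hey list also held the bHLH repressor genes Bhlhe40 and Bhlhe41. Of its 7 tested genes, 0 were higher, 2 lower and 5 without a call after loess, and the median was −0.21. That median was the ratio of Bhlhe41, which did not pass and had 0.033 on its second probe. Hes6, which acts against Hes1 and favours differentiation, was lower at −0.94 ± 0.45 (SD, n = 4; limma adjusted p = 0.0121), with 0.077 under median centring and −0.40 with centring on the tested probes (adjusted p = 0.0688). Hes7, an oscillating gene of the somite clock, was lower at −0.22 ± 0.07 (limma adjusted p = 0.0416), with 0.66 under median centring. Hes6 lost its call without replicate 3 (limma adjusted p = 0.0606) or replicate 4 (0.0626), and Hes7 without replicates 1, 3 or 4 (0.0805 to 0.160). The bHLH repressor gene Bhlhe40 had −0.068 ± 0.04 and did not pass.

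Of 11 genes of E proteins and other bHLH modulators, 3 were higher, 0 lower and 8 without a call, and the median was 0.31, or 0.11 without replicate 2. The median on all 4 arrays was the ratio of the E protein gene Tcf12, which did not pass. A second Tcf12 probe was called lower at −0.83 (limma adjusted p = 0.00801). Tcf3, which encodes the E proteins that Id proteins bind, was higher at 0.66 ± 0.33 (SD, n = 4; limma adjusted p = 0.0156) and had 1.09 on its second probe. Twist2, a repressor of myogenic factors, was higher at 0.61 ± 0.11 (limma adjusted p = 0.00331). Msc, the repressor musculin, was not well above background in control cells on any array and entered the test through the treated channel. It was called higher after loess, had 0.032 under median centring without a call, and was called lower, at −0.44, with centring on the tested probes. Tcf4, another E protein gene, had −0.65 ± 0.59 and did not pass on 4 arrays, but it had −0.93 without replicate 2 (limma adjusted p = 0.000597) and its second probe passed at −0.63 (0.00406). Tcf3 lost its call without replicate 3 (limma adjusted p = 0.0813) or replicate 4 (0.0520). With both channels required above background on all arrays, 2 genes of the list were higher.

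Of 20 BMP and Smad genes, the inputs to Id transcription, 5 were higher, 3 lower and 12 did not pass. Bmpr2, a type II BMP receptor, was lower at −0.72 ± 0.09 (SD, n = 4; limma adjusted p = 0.00174), with 0.0086 under median centring and −0.47 with centring on the tested probes. Grem1, a secreted BMP antagonist, was lower at −0.85 ± 0.56 (limma adjusted p = 0.0301), with 0.14 under median centring. Smad6, an inhibitory Smad, was higher at 0.60 ± 0.34 (limma adjusted p = 0.0235). The receptor gene Acvr1 had 0.12 ± 0.12 on its brightest probe and did not pass, while its second probe had 0.80 (limma adjusted p = 0.00205). Grem1 lost its call without replicate 1 (limma adjusted p = 0.110) or replicate 4 (0.124), and Smad6 without replicate 3 (0.0827) or replicate 4 (0.0991).

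Of the myogenic bHLH factors that the Id and Notch proteins restrain, Myf5, a factor of myoblasts, was higher at 0.60 ± 0.15 (SD, n = 4; limma adjusted p = 0.00486). The other 3 did not pass after loess: Myod1 had −0.021 ± 0.080, Myog −0.0081 ± 0.40 and Myf6 0.053 ± 0.093. Myog ranged from −0.55 on replicate 2 to 0.34 on replicate 4, so that its arrays lay on both sides of 0. Under median centring all 3 passed, Myod1 at 0.97, Myog at 1.02 and Myf6 at −0.42. These lay near the medians of all tested probes in their deciles of intensity, which were 0.99, 0.99 and −0.41. Myf6 was above background in control cells on 1 array only and entered the test through the treated channel.

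**Figure D5:**
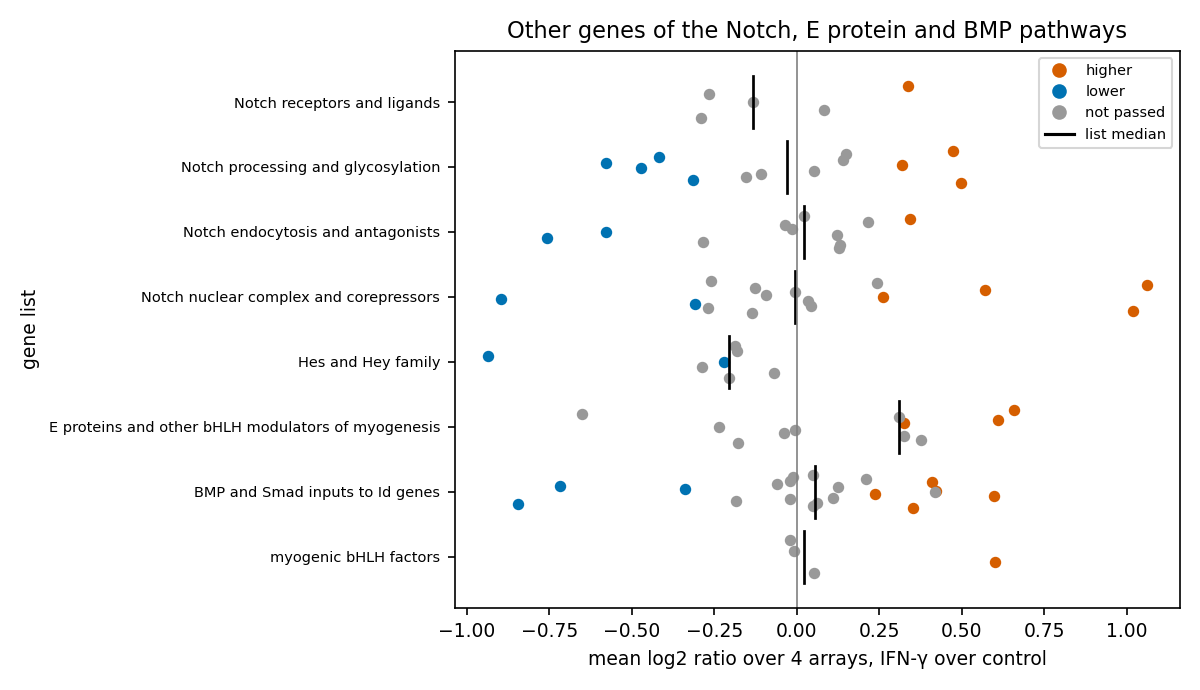
Mean log2 ratio after loess over 4 arrays of each tested gene of the 8 lists, with the list median as a bar and colour for the call at an adjusted p under 0.05. Calls lie on both sides of 0 in 4 of the lists, and median centring, which is not drawn, gives the named lower genes positive ratios.

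Genes used as markers of other cell types were also read, although the culture was of 1 myoblast line. Some of them moved, and their part in the results above was not tested. Of 6 fibroblast markers, 4 were tested and 3 were higher, Pdgfra at 0.67, Col1a1 at 0.46 and Lum at 0.34, while Thy1 and Tcf21 were not well above background. The summed fibroblast intensity was 34325 to 50834 in control and 48210 to 62315 in treated cells. Of 4 tested smooth muscle and pericyte markers, Pdgfrb was higher at 0.65 and 3 were lower, Cspg4 at −0.58, Cnn1 at −1.09 and Des at −1.23. The same Des probe was also counted among the muscle markers above. The sums, which include Des, were 45303 to 50259 and 37460 to 50317, and Myh11 and Rgs5 were not tested. Of 4 tested macrophage markers 0 were higher and Csf1r was lower at −0.40 on its brightest probe. Its other probes had −0.061 and 0.030 and did not pass, and Lyz2 was not tested. The macrophage sums were 56046 to 79190 and 44152 to 70746. They came mostly from Itgam, which had a mean log2 intensity of 15.9 and did not pass, at −0.14. Csf1r, Adgre1 and Ptprc lay at mean log2 intensities of 9.78, 6.93 and 6.50. Of 3 tested endothelial markers Kdr was lower at −1.02, with sums of 3392 to 4687 and 1899 to 2721, and Cdh5, Tie1 and Emcn were not well above background. The 1 tested adipocyte marker, Cidec, did not pass, at sums of 435 to 469 and 438 to 453. Under median centring Csf1r had 0.50 and the 3 fibroblast genes kept positive ratios. Without replicate 3, and also without replicate 4, Col1a1, Lum, Pdgfrb and the muscle genes Ckm, Tnnc1 and Mymk lost their calls.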

How the data were processed

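Gene expression was measured on 4 Agilent arrays of 2 colours. Per the file headers, the authors made the deposited spot intensity values, and the log10 ratio of Cy5 over Cy3, using Feature Extraction 10.7.3.1 of Agilent. Per the series' design text, the authors log2 transformed them in GeneSpring GX and used flags and an unpaired test. The authors' deposited value table was in log2 units: against the log10 ratios it had slopes of 3.30 to 3.32 and correlations of 0.995 to 0.999 over probes above background in both channels. Its direction was Cy5 over Cy3, its column medians were −0.109, −0.116, −0.125 and −0.105, and its centring is unknown.

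Median intensities were corrected with normexp (offset 50), normalised by loess with control spots at weight 0, and averaged per probe, leaving out outlier-flagged spots, in limma 3.58.1 under R 4.3.3. No spot of the 12 probes was flagged or saturated. Channel levels were taken after Aquantile normalisation. A probe was tested if either channel was well above background on 3 or more arrays, a probe of several spots by the majority or an equal split of them. The mean ratio was tested against 0 with lmFit and eBayes, two-sided, with Benjamini-Hochberg adjustment at 0.05. The 14 alternatives changed the normalisation, background correction, filter, unit of test or arrays used. The Feature Extraction ratio and the authors' table change background correction and normalisation together, and the methods' t-test uses channel levels and an unpaired, unmoderated test. The number of arrays limits the precision.

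Symbols came from RefSeq (GRCm38.p6) through transcript accessions: 26055 probes had 1 symbol, 0 several and 13374 none. The arrays' header names another build, so the only coordinates given are those of the RefSeq promoter windows. The named genes were the members; of each list, up to 3 called genes with the largest ratio and the brightest that did not pass; the 3 genes nearest to each of the 2 members with the largest ratio among those called; and the myogenic and IFN-γ check genes. Others, and the second probes, were named after their values were seen. The members and lists were chosen with earlier results of these data known. Nearest genes were sought for Jag1 and Dll1. A result that the rule would name is not reported here.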

Additional observations from a re-analysis of the deposited data

Results flagged for a closer look

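Id3 had 1 array far from the others: its ratio was −0.12 on replicate 2, against 0.35 to 0.38 on the other 3. The gap exceeded Dixon's limit, which chance passes in about 5% of such groups, and the 12 probes were each looked at.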

How the results depend on the processing

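The main test was itself paired, since each ratio sets treated against control RNA on the same array. The arrays form 1 group, so no further pairing was used. Jag1 kept its call under all 14 alternatives, some of which keep its ratio and change only the filter, the unit of test or the test. Median centring without loess turned Id1 to 0.46, Id2 to 0.44, Hes1 to 0.32, Hey1 to 0.59, Notch1 probe 1 to −0.36, Notch1 probe 2 to 0.24 and Notch3 to 0.99. It called 8 member probes higher and 2 lower, 16472 and 6323 of all tested probes, and 60 and 10 genes of the pathway lists. Centring on the tested probes turned Hey1 to 0.12, Notch1 probe 1 to −0.83 and Notch3 to 0.51, and called 5 and 2 member probes, 10483 and 10983 of all probes, and 41 and 20 list genes. With a single probe per gene, and so fewer features, 3103 were higher and 2173 lower. The methods' t-test called 2364 probes and 7 list genes lower. Leaving out 1 array in turn gave 1910 to 6326 probes higher and 1153 to 5548 lower, 1 to 3 member probes higher and 1 to 5 lower, and 5 to 22 list genes higher and 5 to 22 lower; Notch3 had −0.085 to 0.090 over these, the latter without replicate 4. Each of those fits used fewer arrays. The highest count of each range came without replicate 2, where 41.0% of tested probes were called, against 29.1% on all 4 arrays. The causes were not tested. Notch1 probe 1 is limited by its control signal, which was not well above background.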

Other observations

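The 4 ratios of Notch1 probe 2 were shared by few other probes, a pattern chosen after its values were seen. Of 28839 other tested probes, 26 lay within a distance of 0.5 of it, and 9 of these had a gene name: B020031M17Rik, Pnma2, Sdad1, Akap7, Trpm1, Cmya5, Mdk, Ermn and Add1. The nearest lay at 0.080. Of all 28840 probes compared, 20 had replicate 2 at least 0.9 above 0 and the other arrays at least 0.9 below it, and 0 had any other array standing alone in this way.

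By the methods' t-test on channel values, 418 probes were higher and 312 lower at an unadjusted p under 0.05 and a fold of 2, and 411 and 241 after Benjamini-Hochberg adjustment. Of the 12 probes of the Id and Notch genes, 0 passed with the fold of 2, 7 had an unadjusted p under 0.05 and 5 passed after adjustment without a limit on the fold, where the limma fit called 6. That t-test called 21.8% of all tested probes after adjustment, and 1 of the 5 was the Notch1 probe that was not above background in control cells.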
